A study of Mus musculus with 6 samples.

Results

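The genes described here encode the proteins of the cytosolic ribosome and the factors that start and drive protein synthesis on it. They were chosen by name from the platform annotation: every feature whose gene symbol is that of a ribosomal protein (Rpl, Rplp, Rps or Rpsa) or begins with Eif or Eef and a digit, except Eif2ak2. This gave 115 features of 108 genes, out of 16281 features and 10698 named genes on the array. Of the 108 genes, 66 encode ribosomal proteins, 32 carry the Eif name of initiation factors and 10 the Eef name of elongation factors. The rule itself uses names only.

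The RNA was from the mouse macrophage line RAW 264.7, written as RAW 264.4 in the labels' description field for treated RNA. Cells were kept for 8 h without treatment or with 100 ng/ml of lipopolysaccharide (LPS) together with 100 pM of its binding protein. LPS comes from the outer membrane of Gram-negative bacteria, and the binding protein hands it to the receptor complex of the macrophage. Total RNA of both kinds shared each of 6 arrays, in 2 colours and 3 numbered sets, each with 1 array that had treated RNA in Cy5 and 1 that had it in Cy3. Whether the sets were separate cultures is not stated in the labels, and the p-values therefore rest on a spread that may be technical. All ratios below are log2 of treated over untreated, with the sign turned where treated RNA was in Cy3. That direction is a likely one: it follows the labels, in which Cy3 is named control and Cy5 test, but the table itself does not name the numerator, and every sign below would swap under the other reading. Ratios hold no level of expression, so the macrophage identity of the cells could not be checked by the presence of markers. Of 9 macrophage markers 6 were tested, of which 4 rose and 1 fell, and 9 markers of T cells, B cells and fibroblasts had log2 ratios from -0.11 to 0.24.

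Translation begins when the small ribosomal subunit, loaded with initiator tRNA by eIF2 and held by eIF3, is brought to the capped end of an mRNA by the eIF4 factors, scans to the start codon and is joined by the large subunit. Elongation factors of the eEF1 group then deliver aminoacyl-tRNA, and eEF2 moves the ribosome along. Most mRNAs of ribosomal proteins begin with a C and a run of pyrimidines, the TOP element, through which the mTOR pathway controls how much of them is translated. The arrays measured RNA and not translation. In bulk RNA, fewer cells and less of a transcript per cell cannot be told apart. As deposited, each array had a median ratio of 0, so a change shared by most transcripts would not appear.

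Ribosomal protein mRNAs differed little between treated and untreated cells, while initiation factor mRNAs included rises and falls of up to 1.37-fold. Of 34 ribosomal protein genes that could be tested, 1 rose and 0 fell by limma's moderated statistic on 3 set means per gene (adjusted p under 0.05, Benjamini-Hochberg over 10088 genes). This was 2.94% of them, against 34.2% of all genes tested, 17.3% higher and 16.8% lower. Of 28 initiation factor genes tested, 5 rose and 4 fell, which is 32.1% and close to the background. Of 8 genes with the Eef name, 1 rose and 1 fell, or 25%. The median log2 ratio was 0.025 for ribosomal proteins, -0.021 for initiation factors and 0.022 for the Eef genes, against -0.0076 for all genes tested. The median size of the difference, whichever its sign, was 0.038 for ribosomal proteins and 0.114 for both kinds of factor together, against 0.115 for all genes. The spread between sets was alike, with a median SD of 0.069 for ribosomal proteins, 0.070 for factors and 0.083 for all genes. The count of ribosomal proteins that rose went from 0 to 3 over the alternatives tried, in which 21.3% to 39.5% of all genes passed. Leaving out set 3 lowered the initiation factors to 2 that rose and 2 that fell, and all genes from 1750 that rose and 1699 that fell to 1094 and 939.

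**Figure D1:**
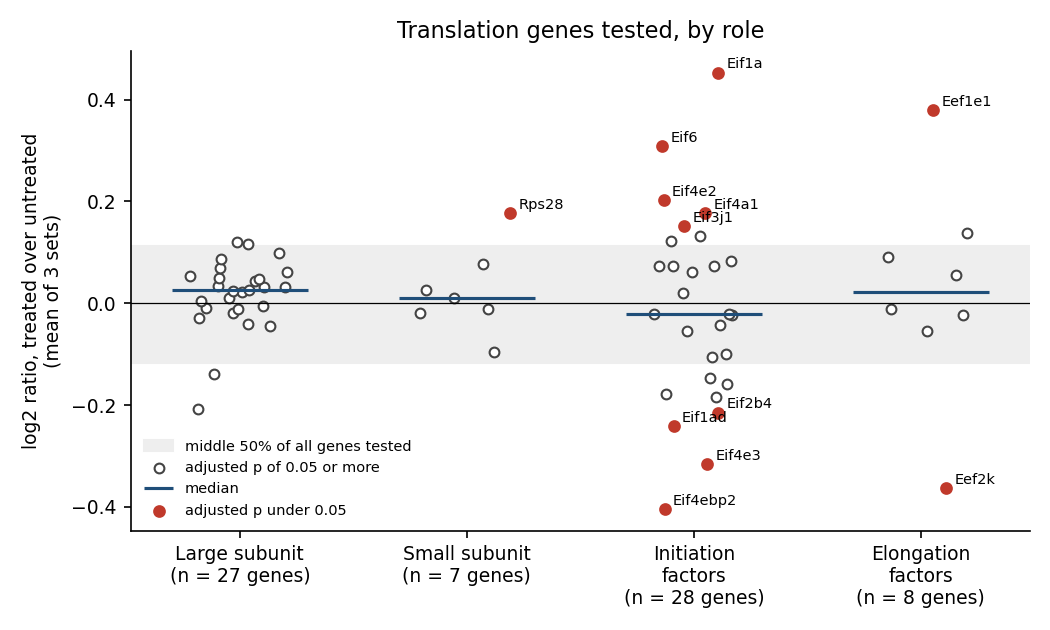
Log2 ratio of treated over untreated (mean of 3 sets, vertical axis) of the 70 genes tested, by role; each circle is a gene, red where limma's adjusted p was under 0.05, the short lines are medians and the grey band holds the middle 50% of all genes tested. Ribosomal proteins lie between -0.21 and 0.18, with 1 red circle among 34, while factors reach from -0.40 to 0.45 with 11 among 36.

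Many ribosomal protein features carried no ratio. A value of exactly 0 was taken as not measured, and what such a value stands for is not given in the sources used here. Of 67 ribosomal protein features, 24 (35.8%) stood at exactly 0 on all 6 arrays and 29 (43.3%) on none. Among all 16281 features, 5.95% stood at 0 on all arrays and 78.6% on none, and among the 48 factor features the shares were 6.25% and 85.4%. Fewer small subunit features were covered, with 12 of 24 features at 0 throughout against 12 of 43 of the large subunit. The statements on ribosomal proteins below therefore cover the 34 genes with at least 2 sets measured in both dye orientations, and say nothing of the other 32.

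**Figure D2:**
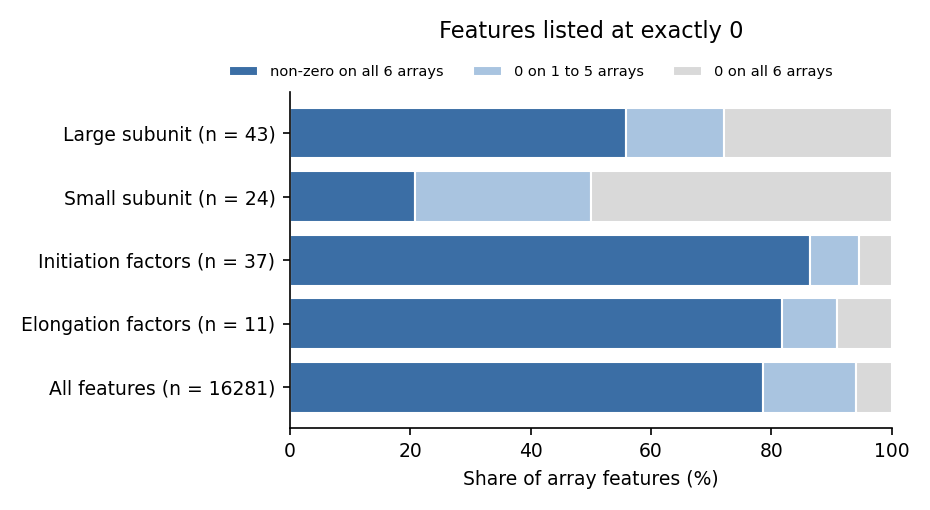
Share of array features (horizontal axis, %) that were non-zero on all 6 arrays, at exactly 0 on 1 to 5 of them, or at 0 on all 6, for each role and for the whole array. The grey part, features without any ratio, makes up 50% of small subunit features and 5.95% of all features.

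The 23 ribosomal protein genes without any ratio were Rpl4, Rpl6, Rpl7a, Rpl12, Rpl13a, Rpl19, Rpl23, Rpl27, Rpl34, Rpl35, Rpl37a and Rplp0 of the large subunit and Rps4x, Rps6, Rps13, Rps14, Rps16, Rps18, Rps19, Rps26, Rps27, Rps29 and Rpsa of the small one. They include Rps6, whose protein is the classical substrate of S6 kinase, Rplp0, a stalk protein often used as a reference gene, and Rpl13a, whose protein is known as a silencer of inflammatory mRNAs. Another 9 had 14 non-zero values between them. Rps3, whose protein also associates with NF-kappaB, read 0.13 and -0.16 on the arrays of set 1 and 0.24 on the Cy5 array of set 2. Rps21 read 0.43 on 1 array, Rps24 0.26 on 1, Rplp2 0.07 on 1, Rps15 0.02 on 1 and Rpl10 0.0075 on 1. Rpl7 (0.17 and 0.09), Rpl28 (0.02 and -0.14) and Rps12 (-0.07 and 0.07) had 2 values each. These single values allow no comparison.

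Annotated start sites were searched for the TOP element. Promoter sequences from RefSeq (GRCm38.p6, 250 bases before to 50 after the annotated start) matched 54 of the 66 ribosomal protein genes and 32 of the 42 factor genes. A C at the annotated start followed by at least 4 bases that are each C or T was present at 1 or more annotated starts in 12 of the 54 ribosomal protein genes (22.2%), in 2 of the 32 factor genes (6.25%), and in 3.05% of the 8515 genes of the array with a promoter in the table. Annotated starts can lie some bases from the start used in these cells, so the counts describe the annotation. The windows below run 5′ to 3′ from 30 bases before the start to 20 bases from it on, and capitals mark the annotated first base with the unbroken run of C and T that begins there. The first 5 are ribosomal proteins chosen for such a run, and the next 2 are the factors that have one.
Rpl15, chr14:18270967-18271016, minus strand: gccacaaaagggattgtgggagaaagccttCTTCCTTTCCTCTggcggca
Rpl35a, chr16:33056452-33056501, plus strand: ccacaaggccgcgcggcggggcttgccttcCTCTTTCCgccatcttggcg
Rpl38, chr11:114668550-114668599, plus strand: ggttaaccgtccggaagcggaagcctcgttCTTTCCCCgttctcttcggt
Rps6, chr4:86857348-86857397, minus strand: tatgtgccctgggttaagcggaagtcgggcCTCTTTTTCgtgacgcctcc
Rps10, chr17:27635225-27635274, minus strand: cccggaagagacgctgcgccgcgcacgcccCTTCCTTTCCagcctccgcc
Eif3f, chr7:108934385-108934434, plus strand: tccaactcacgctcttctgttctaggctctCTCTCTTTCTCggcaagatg
Eif2s3x, chrX:94212632-94212681, minus strand: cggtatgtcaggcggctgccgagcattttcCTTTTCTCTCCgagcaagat
By the counts above, most ribosomal protein genes and most factors lack the run, and whether it goes with the ratios was not tested. Beside them stand the starts of 3 factors that rose or fell, which also lack it.
Eef1e1, chr13:38659009-38659058, minus strand: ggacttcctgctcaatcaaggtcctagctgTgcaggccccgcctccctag
Eif4a1, chr11:69672404-69672453, minus strand: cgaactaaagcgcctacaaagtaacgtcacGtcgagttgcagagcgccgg
Eif4ebp2, chr10:61452650-61452699, minus strand: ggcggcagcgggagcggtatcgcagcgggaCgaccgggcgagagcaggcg
The letters CCGGAAG, the core of an ETS-family site, occurred on either strand of the 300 bases in 23 of 54 ribosomal protein genes (42.6%), in 13 of 32 factor genes (40.6%) and in 14.7% of the genes of the array. Among the factors it was in 12 of 25 initiation genes (48%) and in 1 of 7 Eef genes (14.3%). A match of letters is a description and not a site of binding.

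Among the 27 large subunit genes tested, 0 passed the threshold in limma, against 34.2% of all genes. In that fit 4 had an unadjusted p under 0.05 (14.8%, against 43.6% of all genes). The log2 ratios of the 27 ran from -0.21 for Rpl37 to 0.12 for Rpl32. Rpl37 read -0.26, -0.44 and -0.40 on the Cy5 arrays of sets 1 to 3 and 0.12, -0.44 and 0.16 on the Cy3 arrays. Its mean was -0.21 ± 0.20 (SD, n = 3 sets; adjusted p = 0.0989), and the 2 orientations overlapped through set 2 alone. Rpl27a had the smallest p of the large subunit. It read -0.12, -0.06 and -0.04 on the Cy5 arrays and -0.32, -0.16 and -0.13 on the Cy3 arrays, below 0 on 6 of 6, with a mean of -0.14 ± 0.07 (limma's adjusted p = 0.0795). It passed when the 6 arrays were used as separate replicates with a dye term (adjusted p = 0.0297). Rplp1, a protein of the stalk that recruits elongation factors, was above 0 on 6 of 6 arrays, from 0.02 to 0.20, at a mean of 0.12 ± 0.05 (adjusted p = 0.109).

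Rpl3, a core protein near the peptidyl transferase centre, read 0.50, 0.04 and 0.31 on the Cy5 arrays and -0.68, 0.11 and -0.10 on the Cy3 arrays, and averaged 0.03 ± 0.10. Its muscle paralogue Rpl3l read 0.36, 0.35 and 0.03 against -0.39, -0.50 and -0.09, and averaged -0.04 ± 0.03. Rpl30 ranged from -0.39 to 0.45 over arrays and averaged 0.03 ± 0.04. In these 3 genes the arrays of a set often had opposite signs. Over the 34 ribosomal protein genes, 109 of 196 array values lay above 0 and 87 below, and 193 lay within 0.5 of 0. The mean of the Cy5 arrays and the mean of the Cy3 arrays had opposite signs in 26 of the 34 (76.5%), against 40.3% of all genes tested and 47.2% of the factors. All 6 arrays had the same sign in 3 of the 34 (8.82%) and in 10 of the 36 factors (27.8%), against 32.1% of all genes. Ratios near 0 differ in sign more readily, so both shares in part restate the small ratios of ribosomal proteins. Those shares do not measure dye dependence. The Cy5 mean lay below the Cy3 mean in 22 of the 34, 21 of the 36 factors and 4971 of 10088 genes. The median of Cy5 minus Cy3 was -0.085 for ribosomal proteins, -0.055 for factors and 0.0049 for all genes. Within the ribosome it was -0.135 for the large subunit and 0.052 for the small one. A dye term in limma's fit on the 6 arrays passed for 2 ribosomal proteins, Rpl32 and Rpl39, and for 2 factors, which is 5.71% of members against 4.06% of all genes. Rpl32 read 0.27, 0.29 and 0.36 on the Cy5 arrays and -0.14, -0.05 and -0.01 on the Cy3 arrays. The part of the dyes in the other members was not tested further. Calls here rest on means over both orientations, and results of single orientations are given beside them.

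**Figure D3:**
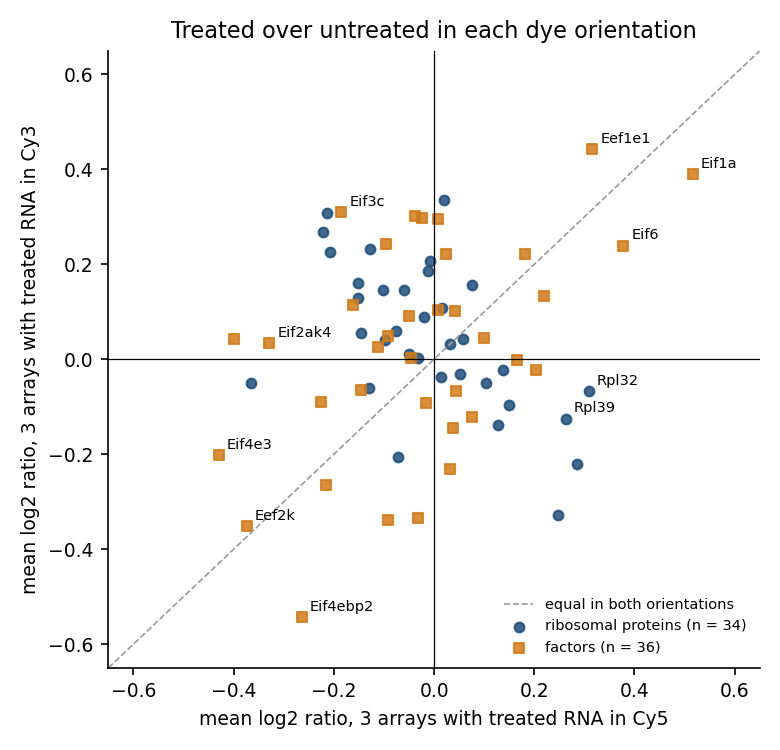
Mean log2 ratio of treated over untreated over the 3 Cy5 arrays, which carried treated RNA in Cy5 (horizontal axis), and on the 3 with treated RNA in Cy3 (vertical axis) for each gene tested; circles are ribosomal proteins, squares factors, and the dashed line marks equal values. In 26 of 34 ribosomal proteins the 2 means have opposite signs, while Eif1a, Eef1e1 and Eif6 lie at the upper right and Eif4ebp2, Eef2k and Eif4e3 at the lower left.

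Of the 7 small subunit genes tested, 1 rose (14.3%, against 17.3% of all genes). Rps28, which encodes a small protein at the mRNA exit side of the subunit, read 0.13, -0.12 and 0.04 on the Cy5 arrays and 0.37, 0.39 and 0.25 on the Cy3 arrays. The 2 orientations did not overlap, and the array of set 2 with treated RNA in Cy5 was below 0. Its mean was 0.18 ± 0.06, or 1.13-fold (n = 3 sets; limma's adjusted p = 0.0343). The adjusted p was 0.0999 without set 1, 0.143 without set 3 and 0.849 on the Cy5 arrays alone, where its mean was 0.02, and 0.0503 after scaling. Rps27l, the p53-responsive paralogue of Rps27, was below 0 on 6 of 6 arrays, from -0.19 to -0.01, with a mean of -0.10 ± 0.05 (adjusted p = 0.169). The other 5 (Rps7, Rps10, Rps20, Rps23 and Rps25) averaged between -0.02 and 0.08, and Rps10 and Rps23 had 2 sets instead of 3, as had Rpl5, Rpl21 and Rpl38 of the large subunit.

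The 95% confidence intervals hold for each gene on its own and rest, like the p-values, on a spread between sets that may be technical. For each of the 34 ribosomal protein genes the interval of limma's fit lay inside a 1.5-fold change in either direction. The outermost bounds were -0.41 for Rpl37 and 0.30 for Rps28. The median width of the interval was 0.24, the same as for the factors. Of the 36 factors, 35 lay inside the same limits, and the upper bound of Eif1a reached 0.61. The share of all genes tested inside these limits was not counted. The count for ribosomal proteins is therefore no sign of a difference from other genes.

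The median of the ribosomal proteins was compared with that of the factors on every array. Ribosomal proteins had medians of 0.06, -0.11 and 0.0074 on the Cy5 arrays of sets 1 to 3 and 0.11, 0.04 and 0.06 on the Cy3 arrays. The factors had -0.03, -0.01 and -0.02 on the Cy5 arrays and 0.03, 0.09 and 0.0032 on the Cy3 arrays. The Cy5 array of set 2 was the lowest for ribosomal proteins. In the set means, ribosomal proteins exceeded factors by 0.08 in set 1 and by 0.05 in set 3 and lay below them by -0.05 in set 2, so that the mean difference of 0.027 ± 0.070 (SD, n = 3 sets) was smaller than its spread. The ranges differed in width. The middle 50% of the ribosomal proteins lay between -0.012 and 0.052, that of the factors between -0.12 and 0.10 and that of all genes between -0.12 and 0.11.

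**Figure D4:**
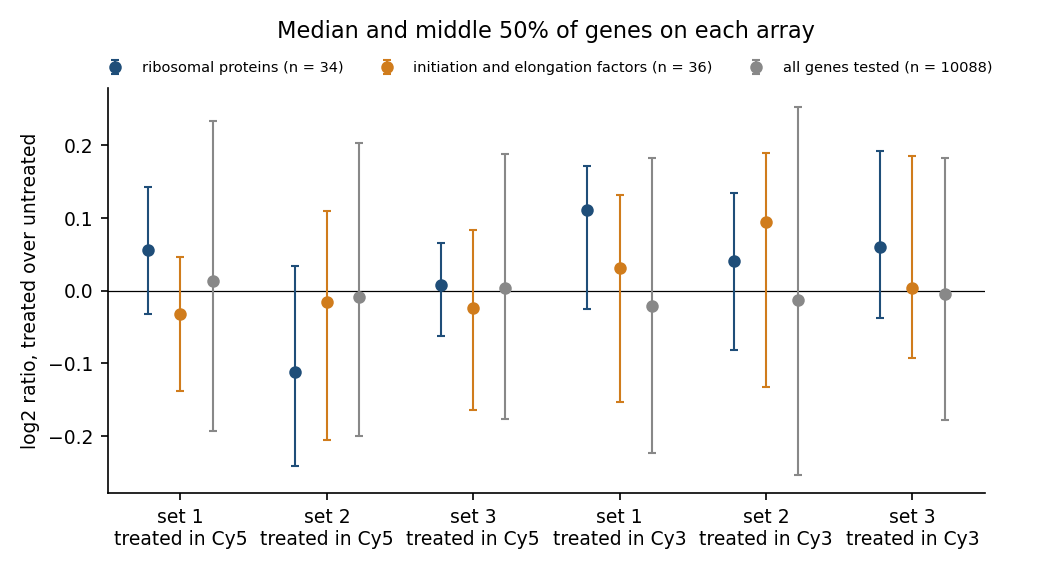
Median (point) and middle 50% (bars) of the log2 ratio of treated over untreated on each of the 6 arrays, for 34 ribosomal proteins, 36 factors and all 10088 genes tested. The medians of ribosomal proteins run from -0.11 on the Cy5 array of set 2 to 0.11 on the Cy3 array of set 1. The bars of ribosomal proteins and those of factors are both shorter than those of all genes on 6 of 6 arrays.

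Among factors of start codon selection and the eIF2 ternary complex, 1 of 7 genes rose and 1 fell (28.6%, against 34.2% of all genes). Eif1a encodes eIF1A, which helps the small subunit scan and recognise the start codon. It read 0.36, 0.62 and 0.56 on the Cy5 arrays and 0.26, 0.53 and 0.38 on the Cy3 arrays, all above 0. Its mean of 0.45 ± 0.13, or 1.37-fold, was the largest rise among gene means of the members (n = 3 sets; limma's adjusted p = 0.00275). Its X-linked paralogue Eif1ax, which encodes a nearly identical protein, read -0.06, -0.19 and -0.04 against 0.13, 0.32 and 0.28, and averaged 0.07 ± 0.04 (adjusted p = 0.27). The 2 genes share sequence, so how far each feature reads the other's transcript is uncertain. Eif1ad, which encodes a protein with an eIF1A-like domain, fell. It read -0.19, -0.25 and -0.21 and then -0.31, -0.24 and -0.24, a narrow band below 0, with a mean of -0.24 ± 0.01 (adjusted p = 0.00762, and 0.0622 without set 3). Eif1b averaged -0.18 ± 0.11 (adjusted p = 0.0554, and 0.0255 without set 2). The eIF2 subunit genes Eif2s2, Eif2s3x and Eif2s3y averaged -0.02, 0.08 and -0.02, with none past the threshold, and the 2 features of Eif2s3y differed in sign (0.07 and -0.11).

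eIF2B recycles eIF2 by exchanging its nucleotide, and the eIF2 kinases slow that step under stress. Of 3 subunit genes of eIF2B tested, 1 fell (33.3%, against 16.8% of all genes), and 3 genes are too few to compare shares. Eif2b4 read -0.02, -0.16 and -0.09 on the Cy5 arrays and -0.27, -0.42 and -0.33 on the Cy3 arrays, with no overlap of the orientations and all 6 below 0. Its mean was -0.21 ± 0.07 (adjusted p = 0.0199, and 0.114 without set 3). On the Cy5 arrays alone it was -0.09 (adjusted p = 0.266). Eif2b1 and Eif2b2 averaged -0.02 and -0.05. Eif2ak4 encodes GCN2, the kinase that senses uncharged tRNA. It read -0.28, -0.34 and -0.36 on the Cy5 arrays but 0.05, 0.10 and -0.05 on the Cy3 arrays, and its mean of -0.15 ± 0.05 did not pass (limma's adjusted p = 0.0547). Its 2 features agreed within 0.02 of each other, at -0.16 and -0.14. Eif2ak3, which encodes the endoplasmic reticulum kinase PERK, had 4 values from -0.38 to 0.44 and too few sets for a test.

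The eIF3 complex is the scaffold of the small subunit during initiation. Of 8 genes tested, 1 rose and 0 fell (12.5%, against 34.2% of all genes). Eif3j1, whose product is the loosely bound subunit at the decoding centre, read 0.02, 0.03 and -0.03 on the Cy5 arrays and 0.29, 0.35 and 0.24 on the Cy3 arrays. The orientations did not overlap, and its mean of 0.15 ± 0.04 passed narrowly (limma's adjusted p = 0.048). The adjusted p was 0.0973 without set 1, 0.125 without set 2 and 0.168 without set 3. On the Cy5 arrays alone the mean was 0.0083 (adjusted p = 0.915). The call was also lost with zeros kept as values (0.0543), after scaling (0.0562) and after quantile normalization (0.0596), and it held under 6 of 13 alternatives. Eif3c (-0.01, -0.28 and -0.27 against 0.39, 0.24 and 0.30) and Eif3e (-0.02, -0.08 and -0.01 against 0.17, 0.40 and 0.33) had the same order of orientations without passing, at means of 0.06 and 0.13. Eif3a averaged -0.18 ± 0.12 (adjusted p = 0.0679, and 0.0354 without set 2) and Eif3f -0.16 ± 0.16 (adjusted p = 0.14, and 0.0217 without set 1). Eif3d, Eif3k and Eif3m averaged 0.07, 0.12 and 0.07. Eif3i had 1 non-zero value of 0.07 and was not tested.

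Of 6 genes of the eIF4 group tested, 2 rose and 1 fell (33.3% and 16.7%, against 17.3% and 16.8% of all genes). With 6 genes, these shares allow no comparison. Eif4a1, the main RNA helicase of cap-dependent initiation, read 0.24, 0.23 and 0.19 on the Cy5 arrays and 0.13, 0.10 and 0.17 on the Cy3 arrays. All 6 were above 0, and the mean was 0.18 ± 0.01 (limma's adjusted p = 0.0243, 0.061 without set 1, 0.162 without set 3 and 0.158 on the Cy3 arrays alone). Its paralogue Eif4a2 averaged -0.11 ± 0.12 (adjusted p = 0.226). Eif4e2 encodes 4EHP, a cap-binding protein that does not engage eIF4G and is known to repress its mRNAs. It read 0.17, 0.14 and 0.24 and then 0.13, 0.28 and 0.26, with a mean of 0.20 ± 0.05 (adjusted p = 0.0188, 0.157 without set 3, and 0.0576 and 0.0717 on the Cy5 and Cy3 arrays alone). Its 2 features averaged 0.25 and 0.16. Eif4e3, another cap-binding homologue, fell. It read -0.32, -0.48 and -0.49 on the Cy5 arrays and -0.13, -0.24 and -0.23 on the Cy3 arrays, with a mean of -0.32 ± 0.08, or 1.24-fold (adjusted p = 0.00479). On the Cy3 arrays alone it was -0.20 (adjusted p = 0.0781). Eif4e itself, the canonical cap-binding protein, ranged from -0.22 to 0.09 and averaged -0.04 ± 0.09 (adjusted p = 0.584). The 3 cap-binding genes stood in the order Eif4e2, Eif4e and Eif4e3. The arrays of Eif4e2 all lay above those of Eif4e, while those of Eif4e and Eif4e3 overlapped. Eif4enif1, which encodes the eIF4E transporter, averaged -0.10 over 1 feature, its other feature being at 0 throughout. Eif4g2 had 3 non-zero values, from 0.12 to 0.32.

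The eIF4E-binding proteins hold eIF4E back from eIF4G until mTOR phosphorylates them. Eif4ebp2 read -0.31, -0.22 and -0.27 on the Cy5 arrays and -0.60, -0.54 and -0.49 on the Cy3 arrays. All 6 values were below 0, and the 2 orientations did not overlap. Its mean of -0.40 ± 0.04, or 1.32-fold, was the largest fall among gene means of the members (n = 3 sets; limma's adjusted p = 0.00127). Eif4ebp1 read 0.07, -0.04 and -0.19 and then 0.30, 0.02 and -0.04, averaging 0.02 ± 0.15 (adjusted p = 0.848, 95% interval -0.15 to 0.19). The intervals of the 2 genes did not overlap, that of Eif4ebp2 running from -0.52 to -0.29; the difference between them was not itself tested.

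Eif6 encodes the factor that keeps the large subunit from joining the small one too early. It rose, with 0.40, 0.41 and 0.32 on the Cy5 arrays and 0.33, 0.14 and 0.25 on the Cy3 arrays, a mean of 0.31 ± 0.05 and a 1.24-fold change (limma's adjusted p = 0.0037, and 0.0673 on the Cy3 arrays alone). Tested singly, 32.7% of all features passed, 17.1% higher and 15.6% lower. The 2 features of Eif6 differed in size, at 0.44 (adjusted p = 0.000863 among features) and 0.18 (adjusted p = 0.0505). Eif5a, which relieves ribosomes stalled at proline stretches, stood at 0 on all arrays.

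**Figure D5:**
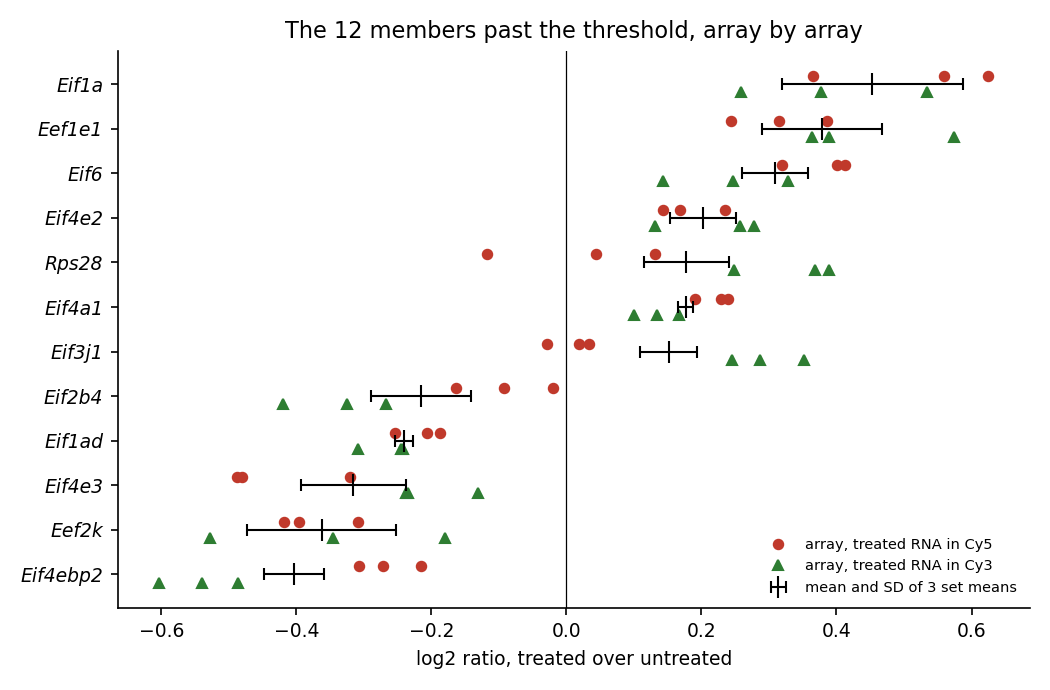
Log2 ratio of treated over untreated (horizontal axis) of the 12 members past the threshold, with each array as a red circle (treated RNA in Cy5) or green triangle (treated RNA in Cy3) and the black mark and bar giving the mean and SD of the 3 set means. For 10 of the 12 all arrays lie on 1 side of 0; Rps28 and Eif3j1 each have 1 array below it.

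The genes with the Eef name are of mixed function. Eef2, which encodes the factor that moves the ribosome, is not analysed here, and Eef1a1 and Eef1b2 had too few values for a test. Eef1e1 encodes AIMP3, a scaffold protein of the multi-tRNA-synthetase complex. It read 0.31, 0.39 and 0.24 on the Cy5 arrays and 0.36, 0.57 and 0.39 on the Cy3 arrays, with a mean of 0.38 ± 0.09, or 1.30-fold (limma's adjusted p = 0.00276). Eef2k encodes the kinase that inhibits eEF2 and so slows elongation. Averaged over its 2 features, it read -0.42, -0.31 and -0.40 on the Cy5 arrays and -0.35, -0.18 and -0.53 on the Cy3 arrays, with a mean of -0.36 ± 0.11, or 1.29-fold (adjusted p = 0.00451, and 0.0563 on the Cy3 arrays alone). The 2 features disagreed. The first read -1.05, -0.77 and -0.82 on the Cy5 arrays and -0.50, 0.15 and -0.52 on the Cy3 arrays, and fell by 0.58 (limma's adjusted p = 0.00457 among features). The other read 0.21, 0.15 and 0.03 and then -0.20, -0.51 and -0.53, and averaged -0.14 (adjusted p = 0.154). Each feature had at least 1 array above 0, and the call rests on the first. Of the elongation factor genes proper, 3 were tested and did not pass. Eef1d and Eef1g, subunits of the exchange factor of eEF1A, averaged -0.02 ± 0.12 and -0.01 ± 0.03, and Eef1a2, the neuronal and muscle form of eEF1A, averaged 0.09 ± 0.11. Eef1a1, the main form, had 2 non-zero values, 0.09 and 0.0088, and Eef1b2 none. The eEF1A methyltransferase genes Eef1akmt1, Eef1akmt2 and Eef1aknmt averaged -0.05, 0.06 and 0.14.

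Other genes of the translation apparatus were read from lists drawn up by function. Of 12 aminoacyl-tRNA synthetase and associated genes tested, 4 rose and 0 fell (33.3%, against 34.2% of all genes). Rars, the arginyl-tRNA synthetase, stood at 0.43 ± 0.04 (limma's adjusted p = 0.000948, above 0 on 6 of 6 arrays). Of 38 ribosome biogenesis genes, 8 rose and 3 fell (28.9%, also against 34.2%), among them Noc3l, a pre-ribosome export factor, at 0.38 ± 0.07 (adjusted p = 0.00208), and Ubtf, the activator of ribosomal RNA transcription, at -0.35 ± 0.09 (adjusted p = 0.00409, and 0.163 on the Cy5 arrays alone). Of 12 genes on a list of termination, recycling and poly(A) binding, 2 rose and 4 fell (16.7% and 33.3%, against 17.3% and 16.8% of all genes). The list is broader than its name. The 4 that fell were Habp4, Serbp1, Pdcd4 and Pabpc4, of which only Pabpc4 is named for poly(A) binding. Etf1, the release factor, rose by 0.44 ± 0.10 (adjusted p = 0.00182) and Habp4 stood at -0.36 ± 0.05 (adjusted p = 0.00203). Of 18 genes on a list of mTOR and S6 kinase signalling, 3 rose and 3 fell (33.3%, near the 34.2% of all genes). These include Mknk1, which rose, and Mknk2, which fell, although both lie outside that pathway. Sesn2, a stress-induced inhibitor of mTORC1, read 0.96, 0.71 and 0.80 on the Cy5 arrays and 0.84, 0.64 and 0.74 on the Cy3 arrays, with a mean of 0.78 ± 0.11 (adjusted p = 0.000246). Deptor, another inhibitor of mTOR, read -1.30, -0.98 and -1.26 and then -1.41, -0.56 and -1.33, with a mean of -1.14 ± 0.32, or 2.21-fold (adjusted p = 0.000908). Both were larger in size than any change among the ribosomal proteins and factors. Of 3 further ribosome genes outside the naming rule that could be tested, 0 passed in limma, against 34.2% of all genes. In that fit 1 had an unadjusted p under 0.05 (33.3%, against 43.6% of all genes).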

How the data were processed

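The authors deposited 1 log2 ratio for each feature on each of 6 arrays hybridised in 2 colours. The base is not stated and was inferred from the largest value, which is the log2 of 100. Nothing in the sources used here names the scanner, the background correction or the dye normalization. No intensities were used, and the small number of arrays limits the precision. Between 8.16% and 13.9% of values per array were exactly 0 and were treated as not measured. As deposited, without zeros, arrays of the same orientation correlated over features (r of 0.705 to 0.899), and opposite ones inversely (r of -0.8 to -0.428). Signs were turned on the 3 arrays that had treated RNA in Cy3.

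Features were named from the platform annotation: 13738 had 1 symbol, 52 several and 2491 none. All 108 member genes matched a RefSeq gene by identifier. A feature's set mean was the mean of both orientations and needed both. A gene was the mean of its features measured in all 3 sets or, failing that, in 2. The test of set means against 0 used limma 3.58.1 (lmFit, then eBayes; R 4.3.3), and p-values were adjusted by Benjamini and Hochberg's method over 10088 genes. The dye term came from a limma fit on the 6 arrays. The procedure was run on simulated independent normal noise with the spread that limma had estimated, with known differences added to some genes. Such data hold no dye effect and no link between sets, so they check the code and not these assumptions.

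The members and lists were chosen with earlier results of these data known. Named genes were, per list, the 3 largest rises and falls that passed or else the smallest p, and a fixed set that included Rplp0, Rpl13a, Rps3, Rps6, Rps27l, Eif4e, Eif4a1, Eif4ebp1, Eif2ak3, Eif2ak4, Eif5a, Eif6, Eef1a1 and Eef2k, plus untested members, paralogues and discordant features; members of other lists were 1 rise and 1 fall each. Eif2s1, Eif4g1 and Eef2 of the fixed set are not analysed here. Members named besides, such as Rpl37, Rpl30, Rplp1 and Eif3a, were chosen after their values were seen. Alternatives covered zeros, features, dye term, replicate block, centring, scaling, quantile normalization, each orientation and each set left out.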

Additional observations from a re-analysis of the deposited data

Results flagged for a closer look

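The log2 ratio of 4 members differed between the dye orientations beyond the spread of the arrays in limma's fit with a dye term (adjusted p under 0.05). This is 4 of 70 members, or 5.71%, against 4.06% of all genes tested. The difference, treated in Cy5 minus treated in Cy3, was 0.39 for Rpl39 (means of 0.26 and -0.13, adjusted p = 0.0453) and 0.38 for Rpl32 (0.31 and -0.07, adjusted p = 0.0466). It was -0.36 for Eif2ak4 (-0.33 and 0.03, adjusted p = 0.0495) and -0.50 for Eif3c (-0.19 and 0.31, adjusted p = 0.0499). For none of the 4 did the mean over both orientations pass the threshold, whereas single orientations did: Rpl32, Rpl39 and Eif2ak4 on the Cy5 arrays alone (adjusted p of 0.0143, 0.0201 and 0.0115) and Eif3c on the Cy3 arrays alone (0.0326). Groups of 3 arrays are too small for a test of single outlying arrays.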

How the results depend on the processing

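Of the 12 members past the threshold, Eif1a, Eef1e1 and Eif4ebp2 passed under all 13 alternatives in which a gene could be followed, and no called member changed direction. Without set 1, 2 or 3, genes that rose numbered 1094 to 1684 and genes that fell 939 to 1711; ribosomal proteins that rose 0 to 1; initiation factors that rose 2 to 4 and that fell 2 to 6; and the median of initiation factors was -0.020 to -0.0066. With the 6 arrays as separate replicates and a dye term, 3 ribosomal proteins rose, 1 fell and 8 initiation factors fell, while 37.6% of all genes passed. With the set number as a replicate block added, the numbers were 2, 1 and 9, and 39.5% of all genes passed. That fit tested 29 ribosomal proteins. Set means join the 2 arrays of a number, as labelled. In a check of this pairing on ratios as deposited, same-numbered arrays deviated together with r of 0.255, 0.192 and 0.0862 over genes. Set 3 correlated better with another number (0.125). With signs turned to treated over untreated, these same-numbered deviations ran in opposite directions. What they stand for was not tested. After scaling, 0 ribosomal proteins rose, and 33.3% of all genes passed. On the Cy5 arrays alone, 2 ribosomal proteins rose and 1 fell, 3 initiation factors rose, and their median was -0.042. Of all genes, 32.9% passed on these arrays. On the Cy3 arrays alone, 2 ribosomal proteins rose, 0 Eef genes fell, and the medians of initiation factors and Eef genes were 0.044 and -0.044. There, 23.6% of all genes passed. With features tested singly, or the feature of smallest SD for each gene, the median of initiation factors was -0.000357, and with the latter 0 Eef genes fell. The latter setting called 35.2% of all genes. The causes were not tested.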
